A study of Drosophila melanogaster with 10 samples.

Results

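The 10 genes described here act in the germ line or in the piRNA pathway of Drosophila melanogaster: piwi, aub, AGO3, zuc, armi, spn-E, vas, tud, nos and bam. They were chosen by name from 11982 genes measured in fluorescent cells sorted from cultures of embryo cells. Markers of neurons and of other cell types were both found in these fractions. A gene was represented by the probe set that the platform annotation gives to it alone, and where there were several, by the brightest over all 10 arrays. Each of the 10 genes had 1 such probe set. The annotation lists nos as nanos, the symbol that RefSeq also uses.

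Cells were taken from embryos at early gastrulation, before neurons differentiate, kept in culture at 25 °C and sorted by fluorescence. The sample labels give 5 to 7 days of culture and the growth protocol 5 to 8. Parents were 2 weeks old. Total RNA of the sorted fraction was hybridised to an Affymetrix expression array, with 5 arrays for each of 2 transgenic strains. The Cha group carries 7.4 kb Cha-Gal:UAS-GFP, in which regulatory sequence of the gene for choline acetyltransferase directs Gal4 and, through it, a green reporter (GFP). The Gad group carries 2.1 kb Gad1(s)-RFP, in which sequence of the gene for glutamate decarboxylase directs a red reporter (RFP). The reporter fragments limit both groups as models, since a cell enters a fraction by its fluorescence and not by its transmitter, and the groups differ in strain and reporter as well as in the marked cells. The question was how the levels of these genes differ between cells marked through cholinergic and through GABAergic regulatory DNA.

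PIWI-interacting RNAs (piRNAs) are small RNAs that guide Argonaute proteins of the PIWI clade to transposon transcripts. In the fly ovary they are made from long precursors at mitochondria and at the perinuclear nuage of germ cells, where Aub and Ago3 cut sense and antisense transcripts in turn. A shorter form of the pathway with Piwi alone works in the somatic cells around the germ cells. Outside the gonad many of these genes are kept low, and loss of the repressor l(3)mbt is known to switch several of them on in larval brain tumours.

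On the arrays, values ran on a log2 scale after the authors' RMA normalization, so a difference of 1 is a 2-fold change, and values of different genes cannot be ranked against each other because their probes differ. Arrays of the same group correlated at r = 0.971 to 0.997 and arrays of different groups at 0.954 to 0.983 over all probe sets. ChAT, the gene of the cholinergic enzyme, differed by 0.68 (limma adjusted p = 0.067), VAChT by 0.22 (0.43), Gad1 by 0.12 (0.626) and VGAT by 0.49 (0.186), always Cha minus Gad. None of these 4 passed the threshold with all arrays. ChAT passed with array weights (0.74, adjusted p = 0.0308) and when Cha replicate 4 (0.81, 0.0306), Cha replicate 5 (0.80, 0.0416) or Gad replicate 4 (0.79, 0.0483) was left out, and VGAT without Cha replicate 4 (0.70, 0.0148), each with the higher level in Cha. The 3′ minus 5′ signal of the GAPDH control probe sets, a sign of RNA integrity and labelling, was 2.91 ± 0.38 (SD, n = 5) in Cha and 3.41 ± 0.19 in Gad (exact permutation p = 0.0317, 0.0952 adjusted over 3 such controls). For the Actin control it was 5.47 ± 0.42 and 5.48 ± 0.19 (exact permutation p = 0.984). For eIF-4a it was higher in Cha, at 5.25 ± 0.39 and 4.98 ± 0.15 (exact permutation p = 0.214). The part of RNA integrity in the differences was not tested. Of 9 measured pan-neuronal markers, 8 lay above the 40th percentile of every array. Among them was elav, named after its values were seen, with means of 9.51 and 9.10. Nothing in the labels ties the 5 samples of a group to separate cultures, so every p-value reflects the spread among these arrays, and that spread may be technical. In sorted pools, fewer cells of a type and less RNA per cell cannot be told apart.

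Of the 10 genes, 9 lay above the 40th percentile of all tested probe sets on all 10 arrays, a limit between 4.75 and 4.84 on the log2 scale. The exception was vas, which lay under it on all 10. Over all genes, 69.3% were above this limit on every array. The percentile is a rank on the array and not a detection call, and detection calls were not used here.

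Between the groups, 3 of the 10 genes passed the threshold (limma, adjusted p under 0.05 over all 11982 genes). The gene bam was 2.61-fold and aub 1.54-fold higher in Cha, and piwi was 2.49-fold higher in Gad. Over all genes 18.5% passed, 8.21% with the higher level in Cha and 10.2% with the higher level in Gad. The groups did not overlap in piwi and bam, as in 13.5% of all genes. The median difference of the 10 genes was -0.13, beside 0.04 over all genes, and their median absolute difference was 0.49, beside 0.20. The sets are unlike, since 3048 of all genes lay under the 40th percentile on 6 or more arrays, but only vas of the 10. Differences of dim genes come out too small, which lowers the value over all genes.

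**Figure D1:**
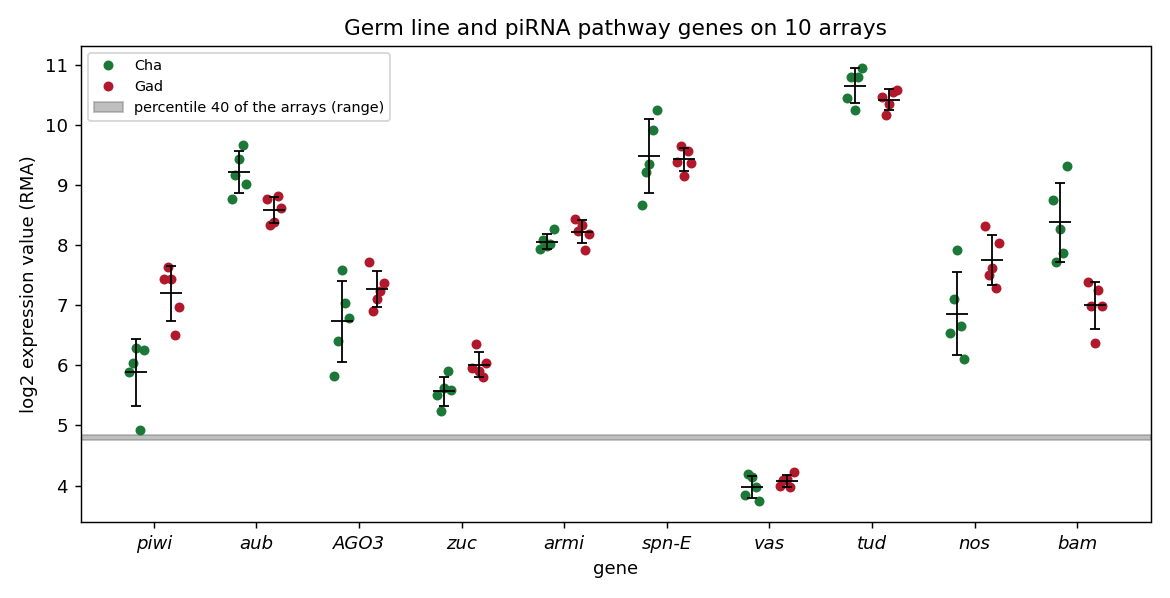
Log2 expression values of the 10 genes (x axis) on each array (points, 5 Cha in green and 5 Gad in red), with the mean and SD of each group (horizontal and vertical bars). The grey band spans the 40th percentiles of the 10 arrays (4.75 to 4.84). The points of vas lie under it, and those of piwi and bam separate the groups.

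Among the PIWI-clade Argonautes, piwi and aub differed in opposite directions. Piwi is the nuclear member, which directs transcriptional silencing of transposons in germ cells and in gonadal somatic cells. Its values were 5.89, 6.04, 6.28, 4.93 and 6.26 in Cha replicates 1 to 5 and 7.44, 7.64, 7.43, 6.51 and 6.97 in Gad replicates 1 to 5. Every Gad array lay above every Cha array, and Cha replicate 4 was the lowest, just above the 40th percentile of its array (4.81). The difference was -1.32 (95% interval -1.94 to -0.70, limma adjusted p = 0.00964). An exact permutation test of the 5 against 5 arrays gave 2-sided p = 0.00794, the smallest it can give.

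Aub is a cytoplasmic slicer of transposon transcripts that also binds maternal mRNAs in the germ plasm. The values of aub were 8.77, 9.17, 9.43, 9.66 and 9.02 in Cha and 8.77, 8.34, 8.39, 8.81 and 8.62 in Gad. The groups overlapped through Cha replicate 1, which lay level with Gad replicate 1 and under Gad replicate 4. The difference was 0.63 (interval 0.25 to 1.0, limma adjusted p = 0.0271, exact permutation p = 0.0159). The call ended without Cha replicate 2 (0.64, adjusted p = 0.0501) or 3 (0.57, 0.0619), or Gad replicate 2 (0.56, 0.0674), 3 (0.58, 0.0725) or 5 (0.63, 0.0548). It also ended without Cha replicate 2 and Gad replicate 5 together (0.64, 0.0945), whose labels share a letter code that they do not explain.

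The contrast between these Argonautes is described by the value of aub minus that of piwi on the same array. It was 3.33 ± 0.80 (SD, n = 5) in Cha and 1.39 ± 0.62 in Gad, with ranges of 2.76 to 4.73 and 0.71 to 2.30 that did not overlap. The differences of aub and piwi between the groups thus lay 1.94 apart. Since the pair was chosen with their opposite signs known, and piwi alone separates the groups, no test is given. The level of each in the value depends on its probes, and only the change between groups can be read.

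**Figure D2:**
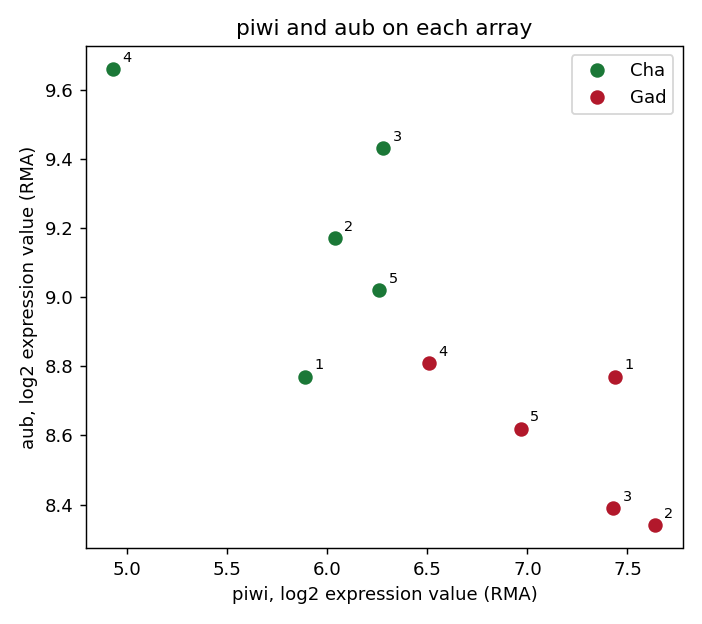
Log2 values of piwi (x axis) and aub (y axis) on each array, with the replicate number beside each point (Cha in green, Gad in red). The Cha arrays lie to the left, with piwi between 4.93 and 6.28, and the Gad arrays to the right, between 6.51 and 7.64, while aub overlaps between the groups.

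AGO3 encodes the partner of Aub in the ping-pong cycle of the germ line. Its values were 5.82, 6.40, 7.59, 7.04 and 6.79 in Cha and 7.71, 6.91, 7.11, 7.24 and 7.36 in Gad. The Cha arrays were spread more widely than the Gad arrays, and the groups overlapped. With a difference of -0.54 (interval -1.17 to 0.10), AGO3 was not past the threshold (limma adjusted p = 0.23).

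The genes of piRNA biogenesis differed less. Zucchini, the product of zuc, is the mitochondrial endonuclease that cuts precursors into piRNAs. Its values were 5.50, 5.24, 5.62, 5.91 and 5.59 in Cha and 5.96, 6.35, 5.90, 5.80 and 6.04 in Gad. Cha replicate 4 lay above Gad replicates 3 and 4, and the other Cha arrays were under all Gad arrays. The difference of -0.44 (interval -0.75 to -0.13) narrowly missed the threshold (limma adjusted p = 0.0516). Without Cha replicate 4 (-0.52, adjusted p = 0.0179) or Gad replicate 4 (-0.49, 0.048) zuc was past it.

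Armitage, the product of armi, is an RNA helicase that brings precursors to the site of Zucchini cutting. The values of armi ran from 7.94 to 8.27 in Cha and from 7.92 to 8.44 in Gad. They differed by -0.16 (interval -0.41 to 0.08, adjusted p = 0.35 by limma). Spindle-E, a helicase with a Tudor domain, is needed for ping-pong amplification. The gene spn-E ranged from 8.67 to 10.24 in Cha and from 9.15 to 9.64 in Gad, so that the Cha arrays lay on both sides of the Gad arrays. Its difference was 0.05 (interval -0.51 to 0.62, adjusted p = 0.911), and its sign turned without Cha replicate 4 (-0.05) or 5 (-0.14) or Gad replicate 3 (-0.01).

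Vasa and Tudor are components of nuage and germ plasm. Vasa is a DEAD-box RNA helicase whose gene is a standard marker of germ cells, and the values of vas lay between 3.75 and 4.19 in Cha and between 3.99 and 4.22 in Gad. They stood at the percentiles 8.91 to 27.8 of the arrays, and the difference of -0.10 (interval -0.33 to 0.13, limma adjusted p = 0.574) therefore compares values under the limit. A second probe set of vas is shared with wwk in the annotation and was not used. Tudor binds methylated PIWI proteins and gave its name to the Tudor domain. The gene tud ran from 10.25 to 10.95 in Cha and from 10.16 to 10.57 in Gad, with a difference of 0.23 (interval -0.08 to 0.55, adjusted p = 0.299 by limma).

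The regulators of germ cell fate, nos and bam, had opposite signs. Nanos, with its partner Pumilio, represses translation in primordial germ cells and is also known from dendrites of larval sensory neurons. Its gene nos had values of 6.53, 7.10, 7.91, 6.66 and 6.10 in Cha and 8.31, 7.5, 7.62, 7.29 and 8.04 in Gad. Cha replicate 3 lay among the Gad arrays, and the other 4 Cha arrays lay under all of them. At -0.89 (interval -1.58 to -0.20) the difference missed the threshold (limma adjusted p = 0.0719), and without Cha replicate 3 it was -1.15 (adjusted p = 0.0143).

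Bam, the bag of marbles protein, starts the differentiation of germ line stem cell daughters. The gene bam had values of 8.74, 7.71, 8.26, 7.86 and 9.32 in Cha and 7.39, 6.98, 6.37, 7.25 and 6.98 in Gad. All Cha arrays lay above all Gad arrays. The difference was 1.38 (interval 0.72 to 2.05, limma adjusted p = 0.0105, exact permutation p = 0.00794). The calls of bam and piwi held in all 10 fits that left out 1 array, with differences of 1.15 to 1.55 for bam and -1.49 to -1.08 for piwi. The SD was smaller in Gad than in Cha for 9 of the 10 genes, with armi as the exception. Over all genes the median SD was 0.167 in Gad and 0.252 in Cha.

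**Figure D3:**
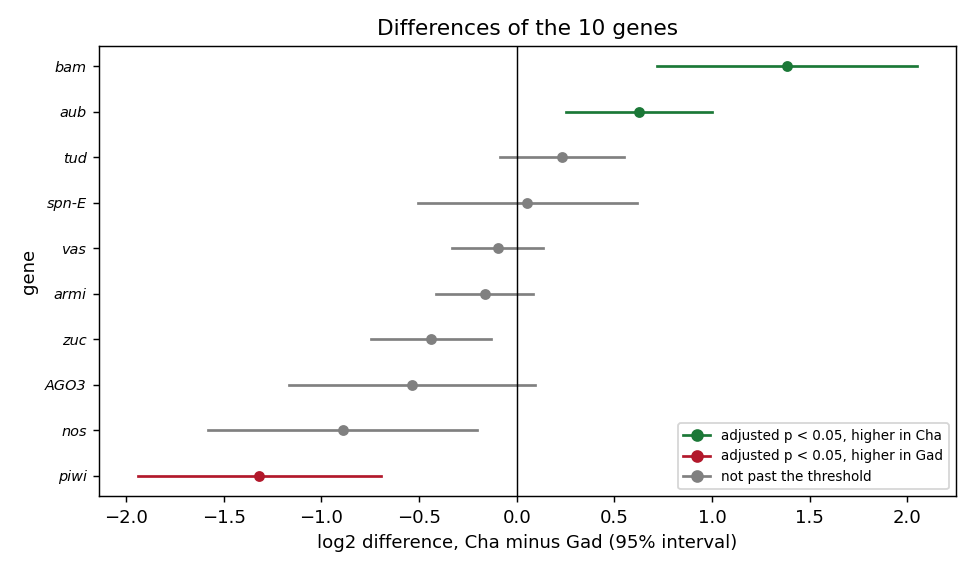
Difference of each of the 10 genes, Cha minus Gad on the log2 scale (points), with its 95% interval from limma (lines). The intervals of bam and aub (green) lie above 0 and pass the threshold, that of piwi (red) lies under 0 and passes it, and the other 7 (grey) do not pass, although the intervals of zuc and nos also lie under 0.

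Other genes of the piRNA pathway were described as a list without the 10 genes. Of 33 measured, 6 passed the threshold with the higher level in Gad and 0 with the higher level in Cha. In total 18.2% passed, close to the 18.5% of all genes, with a median difference of -0.10. Levels of 29 of the 33 lay above the 40th percentile on all 10 arrays, and 1 lay under it on all 10.

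The 4 with the smallest p were shu, fs(1)Yb, mael and mino. Shutdown, the product of shu, is a co-chaperone needed to load PIWI proteins with piRNAs. Its values were 6.74, 6.78, 7.45, 7.30 and 7.17 in Cha and 8.15, 8.28, 8.05, 7.81 and 8.03 in Gad, a difference of -0.98 (limma adjusted p = 0.00223). The gene mino, whose product is a mitochondrial acyltransferase required for piRNA production, stood at 10.84, 10.59, 10.57, 9.05 and 10.43 in Cha and 11.85, 11.62, 12.13, 11.34 and 11.43 in Gad (difference -1.38, adjusted p = 0.0114). As for piwi, Cha replicate 4 was the lowest array. Maelstrom, the product of mael, acts with Piwi in transcriptional silencing. The gene mael had values of 6.72, 7.25, 7.26, 7.65 and 7.44 in Cha and 8.17, 8.43, 7.97, 7.84 and 7.94 in Gad (difference -0.80, limma adjusted p = 0.0102).

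Yb, the product of fs(1)Yb, is the Tudor-domain helicase of the somatic piRNA pathway in the ovary. The gene fs(1)Yb lay at 4.28, 4.5, 4.65, 5.66 and 5.16 in Cha and 5.91, 6.13, 5.85, 5.87 and 5.92 in Gad (difference -1.08, limma adjusted p = 0.00857). It was above the 40th percentile on 2 of the 5 Cha arrays and on all 5 Gad arrays, so its fold is uncertain. In these 4 genes the groups did not overlap, and the calls held in all 10 fits that left out 1 array. Without the pair of arrays that share a letter code, that of fs(1)Yb ended (-1.0, adjusted p = 0.0518), and 3 of the 33 genes were higher in Gad.

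The remaining calls, named after their values were seen, were weaker. BoYb was under the 40th percentile on all 10 arrays (means 3.59 and 3.96). Tudor-SN, a nuclease with a Tudor domain, differed by -0.49 (limma adjusted p = 0.0351) and missed the threshold in 7 of 10 repeats with a single array dropped.

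**Figure D4:**
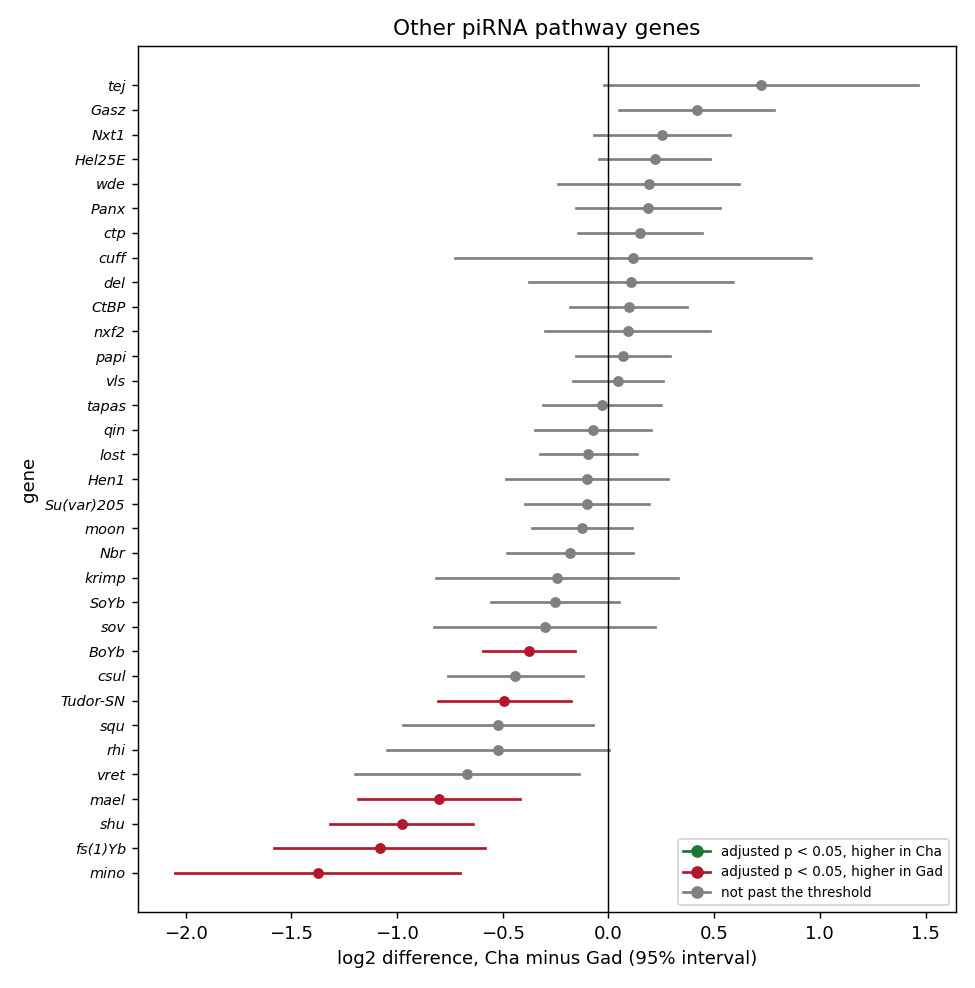
Differences of the 33 other piRNA pathway genes, Cha minus Gad on the log2 scale, with 95% intervals from limma, ordered by size. The 6 genes past the threshold (red) lie under 0, from mino at -1.38 to BoYb at -0.38, and no gene above 0 passes.

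Of 25 other germ cell and germ plasm genes, 2 passed with the higher level in Cha and 1 in Gad, or 12% in all, with a median difference of 0.03. The gene mei-P26, whose product restricts growth of germ line cysts, was higher in Cha by 0.90 (limma adjusted p = 0.00777), with 6.54 to 7.58 in Cha and 5.98 to 6.43 in Gad. The gene stau, for the RNA transport protein Staufen, was higher in Cha by 0.67 (adjusted p = 0.00818). Bgcn is the binding partner of Bam, and bgcn was higher in Gad, opposite to bam. Its values were 5.89, 6.17, 6.44, 6.55 and 6.47 in Cha and 6.95, 6.66, 7.10, 6.89 and 7.15 in Gad, a difference of -0.64 (limma adjusted p = 0.0118), or -0.56 (0.0732) without the pair of arrays that share a letter code. The groups did not overlap in any of these 3 genes. Levels of 18 of the 25 lay above the 40th percentile on all 10 arrays, and 3 lay under it on all 10, like vas. Among these 3 were the germ line genes osk and otu, named after their values were seen. Their means were 4.25 and 4.17 for osk and 3.82 and 3.95 for otu.

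Most genes of sperm differentiation were dim. Of 17 measured, 9 lay under the 40th percentile on all 10 arrays, 1 was higher in Cha and 1 in Gad past the threshold, or 11.8%, and the median difference was 0.04. The testis tubulin gene betaTub85D was higher in Cha by 1.07 (limma adjusted p = 0.006). The gene tomb was higher in Gad by a difference of -0.47 (adjusted p = 0.0354), was above the percentile on only 2 Cha arrays, and missed the threshold 7 times when 10 single arrays were dropped in turn.

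Of 13 partners of Nanos and other genes of translational control, 3 were higher in Cha and 0 in Gad (23.1%), with a median difference of 0.13. The gene pum, for the Nanos partner Pumilio, was higher in Cha by 0.65 (limma adjusted p = 0.00924), whereas a second probe set of pum differed by -0.03 and the average of both by 0.31 (adjusted p = 0.172). Pop2, a deadenylase subunit gene, was higher by 0.58 (adjusted p = 0.0112), and eIF4EHP, for a cap-binding repressor, by 0.48 (0.0196), with 0.22 on its other probe set (adjusted p = 0.0953 over all probe sets). The call of eIF4EHP ended without Gad replicate 5 (0.43, adjusted p = 0.0514) and without the pair of arrays that share a letter code (0.42, 0.0983).

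The other small RNA pathways were represented by 10 genes, of which 1 passed, or 10%, with a median difference of -0.08. This was loqs, for a double-stranded RNA-binding partner of Dicer, which was higher in Cha by 0.68 (limma adjusted p = 0.0209) and lost its call without Gad replicate 3 (0.60, adjusted p = 0.058) and without the pair of arrays that share a letter code (0.64, 0.0982).

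Some repressor complexes are known to keep germ line genes off in the soma. Of 15 genes of the LINT and dREAM complexes, 1 was higher in Cha and 1 in Gad, or 13.3% beside 18.5% of all genes, with a median of 0.04. These were E2f2 (0.40, limma adjusted p = 0.0158) and the deacetylase gene HDAC1 (-0.35, 0.0277), which missed the threshold in 5 of 10 repeats with a single array dropped. The call of E2f2 ended without the pair of arrays that share a letter code (0.40, adjusted p = 0.0742). The gene l(3)mbt itself, named after its values were seen, differed by -0.04 (adjusted p = 0.883). Of 12 heterochromatin genes 0 passed in this limma fit, with a median of 0.11 and 0 at an unadjusted p under 0.05. The smallest p belonged to HP5 (0.23, adjusted p = 0.162) and HP4 (0.39, adjusted p = 0.22).

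Markers of other cell types moved with the groups. Of 12 markers of dividing cells, 9 were higher in Gad and 0 in Cha (75%, median -0.79). CycB3 (-0.99, limma adjusted p = 0.000452), cid (-0.93), ncd (-0.94) and dup (-0.89) led by p. The summed signal of the list, as log2, was 11.27 to 12.42 in Cha and 12.31 to 12.70 in Gad, and cid was under the 40th percentile on all Cha arrays. Of 12 neuroblast markers, 4 were higher in Gad (33.3%, median -0.82): baz (-0.81), pon (-0.84), grh (-1.52) and mira (-1.43). The gene baz was above the 40th percentile on only 2 of the 5 Cha arrays, and a second probe set of grh differed by 0.11. The summed signal of the neuroblast markers was 11.95 to 13.02 and 12.74 to 13.31. The part of these cells in the differences of piwi, shu, mael and mino was not tested.

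Of 10 somatic gonad markers, 2 were higher in Gad and 0 in Cha (20%, median -0.29), namely fs(1)Yb and dsx (-1.41, limma adjusted p = 0.0177), which lay under the 40th percentile on 4 of the 5 Cha arrays. Without the pair of arrays that share a letter code neither passed (adjusted p = 0.0518 for fs(1)Yb and 0.0511 for dsx, at -1.48). The sum ran from 10.16 to 10.59 in Cha and from 10.40 to 10.63 in Gad. Levels of 7 of the 10 lay above the 40th percentile on all 10 arrays, and 1 lay under it on all 10. This was tj (means 4.32 and 4.35), named after its values were seen. It encodes the factor Traffic jam of gonadal somatic cells. Of 11 glial markers, 5 were higher in Gad (45.5%, median -0.56), with sums of 12.68 to 13.12 in Cha and 13.25 to 13.71 in Gad. They included Cyp4g15 (-1.15), drpr (-0.75), zyd (-0.83) and loco (-0.56). Levels of 9 of the 11 lay above the percentile on all arrays, and 1, wrapper, named after its values were seen, lay under it on all.

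Of 8 fat body markers, 5 were higher in Gad (62.5%, median -1.96), with sums of 11.75 to 14.18 in Cha and 14.45 to 15.37 in Gad. Obp99a (-3.82), Pepck1 (-2.0), Lsd-1 (-1.91) and Apoltp (-2.02) were the first by p. Of 8 muscle markers, 5 were higher in Gad (62.5%, median -1.0), with sums of 10.02 to 11.35 and 10.97 to 11.71. Among them were Mlc2 (-1.10), Prm (-1.22), Act87E (-0.95) and up (-1.11), and the last 2 missed the threshold in 6 and 8 of 10 repeats with a single array dropped.

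Of 12 blood cell markers, 2 were higher in each group (33.3%, median -0.09), with sums of 12.02 to 12.56 and 12.33 to 12.82. PPO1 (3.39) and PPO2 (1.73) were higher in Cha, and srp (-1.73) and LanA (-0.93) in Gad. Of 9 pan-neuronal markers, 5 were higher in Cha (55.6%, median 0.53), with sums of 13.97 to 14.85 and 13.07 to 14.21. The genes futsch (1.30), fne (1.29), nrv3 (0.83) and cpx (0.53) were among them. Other probe sets differed by 0.09 and -0.04 for futsch and by 0.40 for cpx (limma adjusted p = 0.103 over all probe sets). In 10 repeats with a single array dropped, cpx missed the threshold in 6 and nrv3 in 1. Whether aub and bam followed the neuronal markers was not tested.

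Genes that share their place with the 10 genes were looked up in a RefSeq gene table, after the values of the 10 genes were known. There, 10 genes overlap 1 of them, and 7 of these 10 were measured. Of the 7, 2 were higher in Cha and 1 in Gad, where 18.5% of all genes passed in either direction. With so few genes, no difference from that share can be read. TTLL4A overlaps aub, and its difference of 0.64 (limma adjusted p = 0.0359) had the sign and nearly the size of that of aub, with 10.70, 10.40, 10, 9.71 and 10.68 in Cha and 9.78, 9.71, 9.46, 9.77 and 9.58 in Gad. It missed the threshold in 8 of 10 repeats with a single array dropped. The Cha arrays did not follow the order of those of aub: replicate 4 was the highest for aub and the lowest for TTLL4A. Among the Gad arrays, replicates 1 and 4 were the highest for both genes (8.77 and 8.81 for aub). CG11779, which overlaps nos, was higher in Gad (-0.75, adjusted p = 0.00633), with 8.17 to 8.69 in Cha and 8.92 to 9.55 in Gad. The gene vig, which overlaps vas, was higher in Cha (1.07, adjusted p = 0.00492) while vas was dim. SCAR, which overlaps piwi, differed by -0.09 (adjusted p = 0.674). Only 2 genes, CG12253 and TTLL4A, lie between piwi and aub in the table. CG12253 differed by 0.42 (limma adjusted p = 0.24). Whether a probe set of the 10 genes also measures an overlapping gene was not tested.

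Finally, the genes most like piwi and bam were sought among 8933 genes above the 40th percentile on at least 5 arrays. Likeness was the root mean square distance between profiles over the 10 arrays, each centred on its mean. For piwi, whose own profile varied by 0.80, these were CG17264 (distance 0.19), prtp (0.26) and Ugt36E1 (0.26), with differences of -1.35, -1.26 and -1.50. For bam, which varied by 0.85, they were Sgs7, a salivary glue gene (0.14), antr (0.30) and lncRNA:CR9162 (0.30), with differences of 1.27, 1.38 and 1.09. These are descriptions of the 10 arrays, with the same groups behind all profiles.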

How the data were processed

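Values are log2 expression values that the authors made with RMA, per the submitters' processing notes. No version of it is known from the sources used. Because RMA gives all arrays 1 distribution, a change shared by most genes cannot be seen, and differences of dim genes come out too small. The number of arrays limits the precision. The deposited table held 18952 probe sets, of which 183 controls were left out. The annotation gives 1 symbol to 13647 of the 18769 tested, several to 402 and none to 4720. The 10 genes and all lists were chosen with earlier results of these data known.

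Differences, Cha minus Gad, come from limma (version 3.58.1, R version 4.3.3), fitted over 11982 genes by lmFit and eBayes, 2-sided and with no covariates, adjusted by the Benjamini-Hochberg method, with a threshold of 0.05. Other probe sets were tested over all probe sets. Single values were compared by exact permutation over 252 groupings. The fit was run on simulated data with known changes and independent noise on each array. That run says nothing of noise shared between arrays, and no result here rests on it. Lists are given by counts and medians, with no test. From each list, up to 4 genes past the threshold with the smallest p were named, or 2 where none passed. Genes outside this rule are marked. Alternatives covered normalization, the filter on dim probe sets, the prior, a block for the replicate number, array weights, arrays left out, an exact rank-sum test, the choice of probe set and stricter thresholds. The average of Gad replicates 4 and 5, the closest pair of arrays, was added after the data were seen. Sequences and promoter motifs were not analysed here.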

Additional observations from a re-analysis of the deposited data

Results flagged for a closer look

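The value of aub minus piwi on Cha replicate 4 (4.73) lay far above those of the other Cha arrays. Its gap to the next made up 0.799 of the range of the group, above the critical value of 0.71 of Dixon's test for 5 samples. This was found in 1 of 22 groups looked at, and chance flags about 1 group in 20. Without that array the difference of the value between the groups was 1.59, beside 1.94 with it. On the same array piwi (4.93), mino (9.05) and mei-P26 (6.54) were at their lowest in Cha, and aub (9.66) at its highest. Also at their highest in Cha there were zuc (5.91), mael (7.65), fs(1)Yb (5.66) and bgcn (6.55), whose differences, like those of piwi and mino, were negative. Among other genes, pum (10.21), TTLL4A (9.71), CG17264 (7.37), SCAR (9.83) and CG11779 (8.17) were at their lowest there, and stau (10.04) at its highest. All were named after their values were seen. The share of all genes with an extreme on this array was not counted.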

How the results depend on the processing

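The difference of piwi was -1.49 to -1.08, that of bam 1.15 to 1.55 and that of aub 0.51 to 0.74 when 1 array was left out, and the ranges of the other genes were -0.75 to -0.31 for AGO3, -0.52 to -0.35 for zuc, -0.24 to -0.11 for armi, -0.14 to 0.26 for spn-E, -0.15 to -0.04 for vas, 0.16 to 0.33 for tud and -1.15 to -0.70 for nos. The number of genes past the threshold ran from 1377 (without Gad replicate 3) to 2614, with 1 to 2 of the 10 genes higher in Cha and 1 to 2 higher in Gad. The sign of spn-E turned without Cha replicate 4 (-0.05) or 5 (-0.14) and without Gad replicate 3 (-0.01). With array weights it turned as well (-0.058), and zuc (-0.49, limma adjusted p = 0.0221) and nos (-0.92, 0.0405) passed, so that 3 of the 10 genes were higher in Gad. The cause was not tested.

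Same-numbered arrays of the groups did not deviate together (r of -0.40 to 0.03), so the numbers give no pairing. With the replicate number as a block, 1113 genes passed, 1 of the 10 genes was higher in Cha, and aub (0.63, limma adjusted p = 0.0651) did not pass, and 3 of the other piRNA pathway genes were higher in Gad. Of the other genes named, mael, tomb, pum, eIF4EHP, loqs, E2f2, HDAC1, dsx, nrv3, cpx, mira, Act87E, up, BoYb, Tudor-SN and TTLL4A also missed the threshold with this block. Without the 2 arrays with the same letter code in their labels, 1055 genes and 1 of the 10 genes higher in Cha passed, without aub (0.64, adjusted p = 0.0945). There fs(1)Yb, bgcn, tomb, eIF4EHP, loqs, E2f2, dsx, nrv3, cpx, loco, grh, mira, Apoltp, up, BoYb, Tudor-SN and TTLL4A missed it too. At an adjusted p of 0.01, 870 genes passed and 0 of the 10 were higher in Cha, since aub (0.63) and bam (1.38) missed it. With a difference of at least 1 as well as the threshold, 704 genes and 1 of the 10 higher in Cha passed.

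The exact rank-sum test called 0 genes after adjustment and 2974 at an unadjusted p under 0.05. Its smallest adjusted p was 0.0586, held by piwi (-1.32) and bam (1.38), with 0.0837 for aub (0.63), so that 0 of the 10 were higher in Cha and 0 in Gad. The smallest p this test can give with 5 arrays a group is 0.00794, reached wherever the groups do not overlap. The difference of aub minus piwi ran from 1.59 to 2.17 without 1 array. The ranges of aub minus piwi did not overlap between the groups, so a sign-flip test over same-numbered pairs could only give its smallest p. None is given. Without dim probe sets vas gave no value. The median difference of all genes was 0.03 after a second quantile normalization, 0.006 after cyclic loess and 0.061 after median centring, beside 0.04 in the main fit. Brightness limits what can be read of vas, osk, otu, BoYb, tj and wrapper, which lay under the 40th percentile on all arrays. The same holds for fs(1)Yb, tomb, dsx, baz and cid, which lay under it on most or all Cha arrays.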
